A study of Mus musculus with 4 samples.

Results

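The dystrophin glycoprotein complex was followed through 9 of its genes, *Dmd*, *Utrn*, *Dag1*, *Sgcb*, *Sgcd*, *Sgce*, *Dtna*, *Dtnb* and *Sspn*, out of 56748 gene IDs in the count files. They were found by symbol, with the version of the Ensembl ID dropped and the ID looked up in the GENCODE mouse annotation. This lookup uses no measured value, but the 9 genes were chosen with earlier results of these data known. The cells were C2C12, an established mouse myoblast line, kept in growth medium and transfected with either a scrambled shRNA (2 libraries) or a mixture of 3 shRNAs against *Hnrnpl* (2 libraries), on plasmids that carry eGFP. *Hnrnpl* codes for hnRNP L, an RNA-binding protein that acts in splicing. Each group was 1 stable line selected with puromycin, the replicates were passages of that line, and each of 2 labelled batches held 1 library of each group, so p-values measure the spread between passages and a difference between the lines cannot be told apart from the knockdown. RNA was read directly on nanopore flow cells, and the reads were counted per gene, without normalization and without separating transcripts.

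The complex links the actin cytoskeleton of a muscle fibre to the extracellular matrix. Dystrophin, or its close relative utrophin, binds actin on the inside and dystroglycan at the membrane, dystroglycan binds laminin outside, and the sarcoglycans, sarcospan, dystrobrevins and syntrophins complete the assembly. Dystrophin is the protein lost in Duchenne muscular dystrophy, utrophin is abundant in immature muscle, and mutations in several sarcoglycans cause limb-girdle muscular dystrophies.

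No gene of the complex met the criteria for a change. Of the 9 genes, 8 were tested and 1, *Dmd*, was listed at 0 in all 4 libraries. The criteria were an adjusted p under 0.05, a log2 fold change beyond 0.5 in either direction and, on average, more than 10 normalized counts. These cut-offs were those of the authors, who applied them to DESeq2 results. The adjusted p used here came from another test, the edgeR quasi-likelihood test, with Benjamini-Hochberg adjustment over 8670 genes. The 8 genes gave 0 calls, where 5.55% of all genes tested were called, 2.33% higher and 3.22% lower in knockdown. Likewise 0 of the 8 had an adjusted p under 0.05 in edgeR, against 5.95% of all genes, and each of 4 DESeq2 configurations also called 0. At an unadjusted p under 0.05 there was 1 gene, *Sgcb*, against 21.8% of all genes. Higher values in knockdown were fitted for 5 genes and lower values for 3, with a median log2 fold change of 0.19, where the median over all genes tested was -0.00 and the median absolute value 0.27. The 95% intervals of 4 of the 8 genes lay within a 2-fold change in either direction, those of *Utrn*, *Dag1*, *Sgce* and *Dtna*, and the intervals of the other genes reached past it.

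The 4 libraries held between 1229424 and 1676911 reads counted on genes. For *Hnrnpl* itself 358 and 656 scrambled reads stood against 242 and 258 knockdown reads, a log2 fold change of -0.78 (standard error, SE, 0.18, adjusted p = 0.0112 from edgeR). Without scrambled 2 this value was -0.47 (adjusted p = 0.164), and without knockdown 1 it was -0.63 (adjusted p = 0.283). Over all genes, 481 were called with all libraries and 20 without knockdown 1. Of 8 myoblast markers, 4 could be tested and 3, *Cdh15*, *Chrna1* and *Des*, were called lower in knockdown. The list was drawn up with earlier results of these data known. The summed level of the 8 markers was 654 and 795 CPM (counts per 1000000 counted reads) in scrambled and 451 and 367 CPM in knockdown. The defining marker *Myf5* had 157 and 190 reads in scrambled and 158 and 113 in knockdown. It was the tested marker not called (log2 fold change -0.16, adjusted p = 0.615 from edgeR). *Myod1* had 1 read in all, and *Pax7* was listed at 0. Genes that every cell uses were also listed at 0, as given with *Dmd*, so these low listings cannot be read as levels. Of 14 markers of differentiated myotubes, 9 were listed at 0, *Myog* and *Ckm* among them, and *Acta1* had 16 and 9 reads in scrambled and 7 and 9 in knockdown. The summed level of the myotube list lay between 8.95 and 15.1 CPM. Summed markers of fibroblasts and other mesenchymal cells were 860 and 641 CPM in scrambled and 590 and 372 CPM in knockdown. Nearly all of this sum came from *Col3a1* (559 and 428 CPM in scrambled, 471 and 282 in knockdown) and *Col1a2* (295 and 206 against 112 and 85.4). In the same list *Pdgfra* reached at most 5.96 CPM, and *Thy1*, *Lum*, *Tcf21* and *Col1a1* were listed at 0. Summed markers of adipocytes and of neural or glial cells reached at most 1.79 CPM. In bulk RNA, fewer cells of a type and less RNA per cell cannot be told apart, and the part of these markers in the values of the complex genes was not tested.

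The sequences that the shRNAs target are shown with the nearest stretches of complex transcripts, since a close match would touch the comparison. The first target lies in coding sequence of *Hnrnpl* at chr7:28512764-28512784 and the third at chr7:28518269-28518289, while the second crosses a splice junction between 28513501 and 28513631 on the same chromosome (GRCm39, forward strand). All are printed as RNA-sense DNA, 5′ to 3′, and in the sites of complex genes capitals mark the bases that differ from the target above them.
*Hnrnpl* target 1: attgacggagtagtggaagct
*Sgcd* site nearest to target 1: aGtgaAgTGgtCgtggGagct
*Dtnb* site nearest to target 1: CAtgGcggagAagAggCagct
*Hnrnpl* target 2: ctactccataaccacggatgt
*Dag1* site nearest to target 2: ctaAGccataTcGacTgTtgA
*Hnrnpl* target 3: atggtctatggcttggatcaa
*Sgce* site nearest to target 3: atggGctGtgTGttgAatAaa

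No stretch of any annotated transcript of the 9 genes came closer than 6 mismatches in 21 bases. The *Sgcd* site is coding, at chr11:47016381-47016401 on the reverse strand, and the *Dtnb* site is coding, at chr12:3639204-3639224 on the forward strand. Both have 6 mismatches to the first target. Among the longest coding transcripts of 21433 other genes, 4.12% came as close to that target as *Dtnb* did. For *Sgcd* the longest coding transcript had at best 8 mismatches to it, and 69.1% of other genes came as close. The *Dag1* site, at chr9:108082743-108082763 on the reverse strand in the 3′ UTR, has 7 mismatches, and 20.4% of other genes were as close to the second target. The *Sgce* site has 6 mismatches and lies at chr6:4708625-4708645 on the reverse strand, in a transcript annotated as non-coding. *Dtna* also came within 6 mismatches of the third target, and *Dtna* and *Dtnb* equalled *Dag1* with 7 mismatches to the second, at sites not printed here. The longest coding transcripts of *Sgce* and *Dtna* had at best 8 mismatches to the third target, and 69.4% of other genes came as close.

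**Figure D1:**
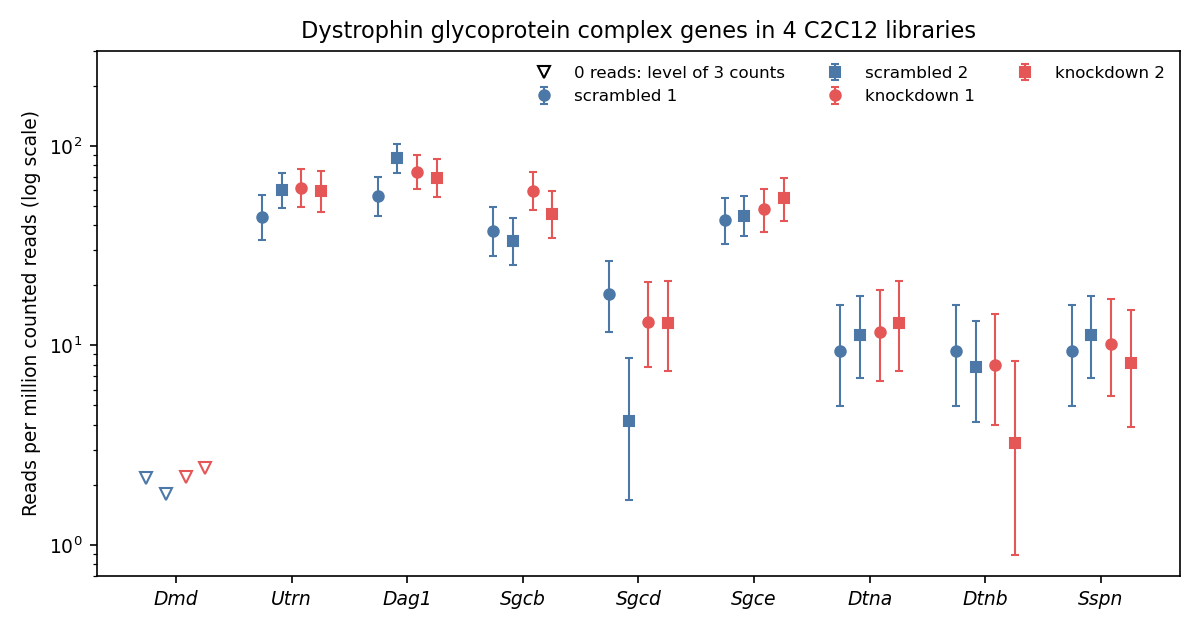
Level of each complex gene in each library, in CPM on a log scale; circles and squares are replicates 1 and 2, bars are 95% Poisson intervals that cover counting error only, and open triangles mark the level of 3 counts where no read was listed. *Dag1*, *Utrn*, *Sgce* and *Sgcb* sat between 33.4 and 87.1 CPM, the other 4 genes with reads between 3.25 and 18.0 CPM.

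The levels fell into 2 ranges. *Dag1* led with a mean of 71.7 CPM over the 4 libraries, followed by *Utrn* with 56.4, *Sgce* with 47.4 and *Sgcb* with 44.0 CPM, and the ranges of neighbours in this order overlapped. Below them were *Sgcd* with 12.1, *Dtna* with 11.3, *Sspn* with 9.75 and *Dtnb* with 7.09 CPM, again with overlapping ranges, and none of these 4 reached the lowest value of the upper 4. The genes differ widely in length, and levels were also set per kilobase of the canonical transcript. A direct RNA read starts at the 3′ end of 1 molecule, so counts need not grow with length, and both scales are given. On that scale *Dag1* had 12.3, *Sgce* 11.9 and *Sgcb* 11.6 CPM per kb, with overlapping ranges, and *Sgcd* had 7.47 CPM per kb with a range from 2.58 to 11.1. *Utrn*, with a canonical transcript of 13.5 kb, had a lower mean than *Sgcd* on the scale per kilobase through the division by length. It stood at 4.16 CPM per kb, between 3.25 and 4.57 in the 4 libraries. The ranges of *Utrn* and *Sgcd* overlapped, and in scrambled 2 *Utrn* (4.45) lay above *Sgcd* (2.58). *Dtnb* with 2.60, *Dtna* with 2.33 and *Sspn* with 2.19 CPM per kb overlapped one another. Together the 9 genes held 314 and 436 reads in scrambled and 394 and 327 in knockdown, which is 226 and 260 CPM against 287 and 266 CPM.

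*Dmd*, the gene of dystrophin (ENSMUSG00000045103.20, chrX:81992474-84249747, forward strand, 79 exons in the canonical transcript), was listed at 0 in both scrambled and both knockdown libraries. At 3 counts, a listing of 0 allows between 1.79 and 2.44 CPM in a single library, counting error only, and the gene could not be tested. The limit holds only if its reads could be counted. The files also list 0 reads for *Rpl23a* and *Rpl35*, ribosomal proteins that every cell uses, and for *Col1a1*, although *Col1a2* had 409 and 345 reads in scrambled and 154 and 105 in knockdown (genes chosen after their values were seen). Between 16.0% and 16.5% of all reads in a library were set aside by the counting program as falling on more than 1 gene, and between 22.7% and 23.8% for low mapping quality. The exons of *Dmd* share no base with another gene in the annotation used here, and the last 500 and 1000 bases of its canonical transcript mapped back to the X chromosome at a mapping quality of 60, above the minimum of 10. Whether reads of *Dmd* were among those set aside was not tested.

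*Utrn*, which codes for utrophin (ENSMUSG00000019820.12, chr10:12257537-12745265, reverse strand), had 61 and 101 reads in the scrambled libraries 1 and 2 and 85 and 73 in the corresponding knockdown libraries. Normalized to the mean library size these are 63.9 and 85.0 against 84.7 and 85.3, or 74.4 ± 14.9 (SD, n = 2) against 85.0 ± 0.447 (SD, n = 2). Scrambled 1 was the low library and the other 3 lay within 1 normalized count of each other. The log2 fold change was 0.18 (SE 0.20, 95% interval -0.23 to 0.59, adjusted p = 0.646 from edgeR), beside a median of 0.24 for the genes of chromosome 10. Without scrambled 1 it was 0.00 and without scrambled 2 it was 0.41. Dystrophin reads of 0 beside 61 to 101 utrophin reads in each library held in both groups.

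*Dag1* codes for dystroglycan, the laminin receptor at the centre of the complex (ENSMUSG00000039952.16, chr9:108081833-108152333, reverse strand). It had 78 and 146 reads in scrambled and 102 and 85 in knockdown, or 81.7 and 123 against 102 and 99.3 normalized counts. Both knockdown libraries lay between the 2 scrambled libraries. The log2 fold change was -0.04 (SE 0.19, 95% interval -0.45 to 0.37, adjusted p = 0.933 from edgeR). Genes of chromosome 9 had a median log2 fold change of -0.37, and 76 tested genes within 5 Mb of *Dag1* had a median of -0.39, both within the 95% interval of *Dag1*. With chromosome medians removed, its log2 fold change was 0.33 (adjusted p = 0.483), and without scrambled 2 it was 0.30 (adjusted p = 0.600). Within the scrambled group, replicate 1 held 34.8% of the *Dag1* reads where its library size after normalization would give 44.6% (exact binomial test, two-sided, p = 0.00375, adjusted p = 0.0300 over 16 such tests). This test allows for counting error only and not for the spread between passages.

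*Sgcb*, the gene of β-sarcoglycan (ENSMUSG00000029156.12, chr5:73790086-73805133, reverse strand), showed the largest positive difference of the 8 genes. It had 52 and 56 reads in scrambled and 82 and 56 in knockdown, or 54.4 and 47.1 against 81.7 and 65.4 normalized counts, and both knockdown libraries lay above both scrambled libraries. The means were 50.8 ± 5.19 (SD, n = 2) and 73.6 ± 11.5 (SD, n = 2). The log2 fold change of 0.55 (SE 0.22) corresponds to 1.46-fold, with a 95% interval from 1.07 to 2.01, at an unadjusted p = 0.0208 and an adjusted p = 0.143 from edgeR. The log2 ratio was 0.59 in batch 1 and 0.47 in batch 2. Over 16 alternative settings *Sgcb* ran from 0.32 to 0.69 on the log2 scale and its adjusted p from 0.129 to 0.979, so the call was never met. The lowest value was that with chromosome medians removed, the median of chromosome 5 being 0.23.

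*Sgce* codes for ε-sarcoglycan (ENSMUSG00000004631.16, chr6:4672057-4747207, reverse strand), a sarcoglycan that is also found outside muscle and whose gene is imprinted. It had 59 and 75 reads in scrambled and 66 and 67 in knockdown, or 61.8 and 63.1 against 65.8 and 78.3 normalized counts. The groups did not overlap here either, which makes 2 of the 8 genes, *Sgcb* and *Sgce*, against 52.4% of all genes tested. The log2 fold change was 0.20 (SE 0.20, 95% interval -0.23 to 0.63, adjusted p = 0.618 from edgeR), below the median of 0.28 for chromosome 6, and with chromosome medians removed it was -0.08. With single libraries left out it ran from 0.07 (without knockdown 2) to 0.32 (without knockdown 1).

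*Sgcd*, the gene of δ-sarcoglycan (ENSMUSG00000020354.16, chr11:46787080-47879796, reverse strand), had 25 and 7 reads in scrambled and 18 and 16 in knockdown. In normalized counts these are 26.2 and 5.89 against 17.9 and 18.7, so the 2 scrambled libraries spanned the whole range and the knockdown libraries lay between them. Scrambled 1 held 78.1% of the scrambled *Sgcd* reads where library size after normalization would give 44.6% (exact binomial test, two-sided, p = 0.000133, adjusted p = 0.00212 over 16 tests). Again this is beyond counting error only. The log2 fold change of 0.27 (SE 0.49, 95% interval -0.75 to 1.29, adjusted p = 0.796 from edgeR) turned to -0.52 without scrambled 2 and was 1.61 without scrambled 1, at adjusted p of 0.619 and 0.0899.

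**Figure D2:**
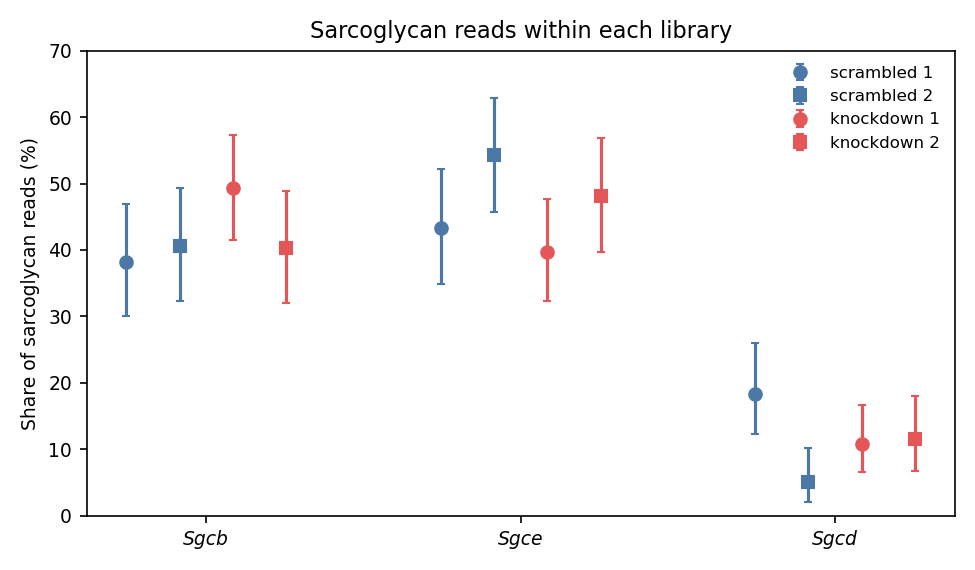
Share of the reads on *Sgcb*, *Sgce* and *Sgcd* that fell on each of them, in percent, per library; bars are 95% Clopper-Pearson intervals that cover counting error only. *Sgcd* held 18.4% in scrambled 1 and 5.07% in scrambled 2, with both knockdown libraries between them.

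A share of reads within a library does not depend on the scaling between libraries. Of the sarcoglycan reads, *Sgcb* took 38.2% and 40.6% in scrambled against 49.4% and 40.3% in knockdown, and the groups overlapped. *Sgce* took 43.4% and 54.3% in scrambled and 39.8% and 48.2% in knockdown. *Sgcd* took 18.4% (95% Clopper-Pearson interval 12.3% to 25.9%) and 5.07% (2.06% to 10.2%) in scrambled, intervals that do not touch, against 10.8% and 11.5% in knockdown. With 2 libraries per group, the smallest two-sided p of an exact permutation test is 0.333, and none was run on these shares. *Dag1* and *Utrn* varied less in this respect, and *Dag1* made up 56.1% and 59.1% of their joint reads in scrambled and 54.5% and 53.8% in knockdown.

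The dystrobrevins, which bind dystrophin or utrophin and carry syntrophins, had few reads. *Dtna*, the gene of α-dystrobrevin (ENSMUSG00000024302.17, chr18:23548183-23793477, forward strand), had 13 and 19 reads in scrambled and 16 in each knockdown library, with a log2 fold change of 0.21 (SE 0.38, 95% interval -0.58 to 1.00, adjusted p = 0.796 from edgeR). Without single libraries *Dtna* ran from 0.10 (knockdown 2 left out) to 0.33 (scrambled 2 left out). Normalized, its libraries ran from 13.6 to 18.7 and the groups overlapped, by 16.0 in scrambled 2 and 15.9 in knockdown 1. *Dtna* is annotated with 85 transcripts, and these counts say nothing about which of them were present. *Dtnb*, the gene of β-dystrobrevin (ENSMUSG00000071454.14, chr12:3621915-3841634, forward strand), had 13 reads in each scrambled library and 11 and 4 in knockdown. In normalized counts *Dtnb* was at 13.6 and 10.9 against 11.0 and 4.67, so knockdown 2 was the low library and knockdown 1 lay within the scrambled range. Its log2 fold change was -0.59 (SE 0.48, 95% interval -1.60 to 0.42, adjusted p = 0.514 from edgeR), -0.15 without knockdown 2 and -1.36 without knockdown 1. Its mean normalized count of 10.0 sat at the edge of the threshold of 10. *Dtna* made up 50.0% and 59.4% of dystrobrevin reads in scrambled and 59.3% and 80.0% in knockdown, and the interval of the last share ran from 56.3% to 94.3%.

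*Sspn* codes for sarcospan, the small membrane protein that sits with the sarcoglycans (ENSMUSG00000030255.14, chr6:145877367-145910950, forward strand). It had 13 and 19 reads in scrambled and 14 and 10 in knockdown, or 13.6 and 16.0 against 13.9 and 11.7 normalized counts. The groups overlapped, and the log2 fold change was -0.21 (SE 0.40, 95% interval -1.04 to 0.63, adjusted p = 0.811 from edgeR), between -0.35 without knockdown 1 and -0.08 without scrambled 2. *Sspn* and *Sgce* lie on the same chromosome, whose median was 0.28. With chromosome medians removed the log2 fold change of *Sspn* was -0.48 (adjusted p = 0.655 from edgeR).

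Within batches, 4 of the 8 genes were higher in knockdown in both batches (*Utrn*, *Sgcb*, *Sgce* and *Dtna*), 1 was lower in both (*Dtnb*), and 3 differed in direction (*Dag1*, *Sgcd* and *Sspn*). The share of all genes tested that kept 1 direction in both batches was not computed, so these counts are descriptions. For *Utrn* the log2 ratio in batch 2 was 0.01. The widest gap between batches was that of *Sgcd*, with log2 ratios of -0.55 in batch 1 and 1.67 in batch 2. Of the 8 genes, 4 lay above the median of their own chromosome.

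**Figure D3:**
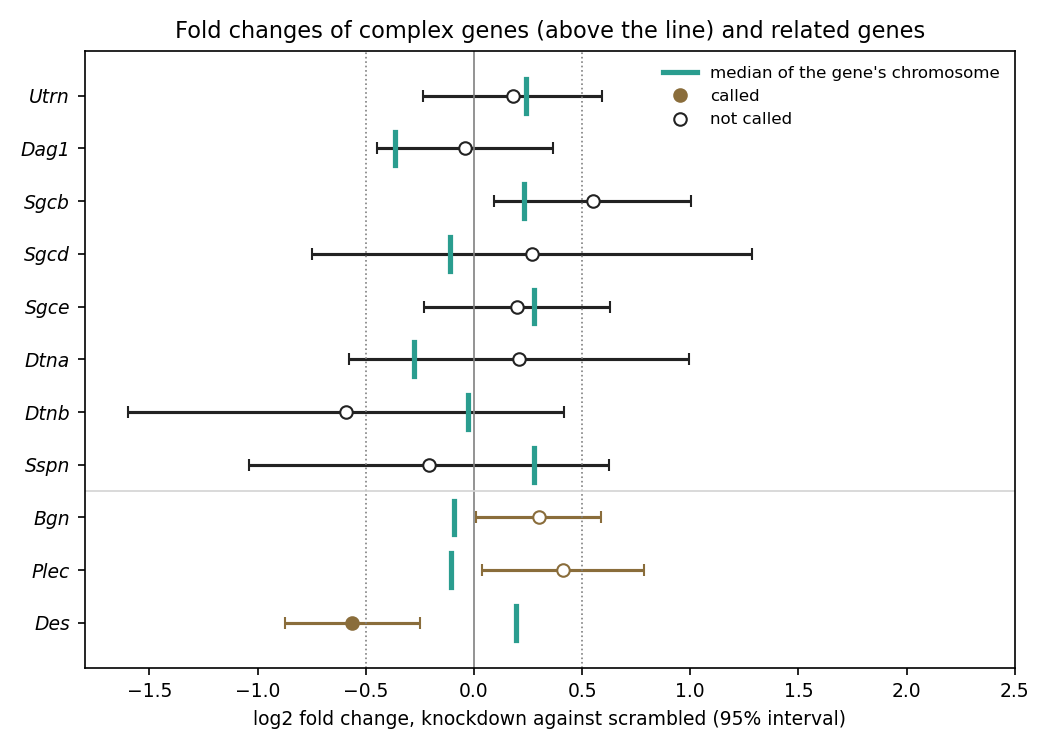
Log2 fold change of knockdown against scrambled with its 95% interval, for the 8 complex genes tested (above the line) and 3 genes of dystroglycan ligands and cytoskeletal partners with an unadjusted p under 0.05 (below it); filled points met the criteria, dotted lines mark 0.5 in either direction and green ticks the median of the gene's chromosome. Every interval of a complex gene but that of *Sgcb* spans 0, and *Des* is the filled point.

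For the other 11 genes of the complex few reads were listed, and as for *Dmd* a listing of 0 may not be a level. Reads were listed for 7 of them and 2 could be tested, with 0 called in edgeR and 1 at an unadjusted p under 0.05. *Sntb2*, the gene of a syntrophin, had a log2 fold change of 0.30 (adjusted p = 0.593). The muscle sarcoglycan gene *Sgca* had 5 reads over all 4 libraries, and *Sgcz* was listed at 0. *Nos1*, the neuronal nitric oxide synthase that docks on syntrophin in muscle, had 1 read in all, and *Cav3* was listed at 0.

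Among 13 genes of extracellular ligands of dystroglycan and proteins linked to them, 6 were tested and 0 were called in edgeR, with 1 at an unadjusted p under 0.05 and a median log2 fold change of 0.27. That gene was *Bgn*, which codes for the matrix proteoglycan biglycan, with 399 and 451 reads in scrambled and 509 and 404 in knockdown (log2 fold change 0.30, SE 0.14, adjusted p = 0.213). The laminin genes *Lamb1*, *Lamb2* and *Lamc1* had values of 0.24, 0.36 and 0.31 and *Lama5* of -0.52, with adjusted p between 0.321 and 0.562.

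Of 13 cytoskeletal partners 6 were tested, with 1 called lower, 0 called higher and a median log2 fold change of -0.15. *Des*, the gene of the muscle intermediate filament desmin and also one of the myoblast markers above, had 373 and 571 reads in scrambled and 309 and 242 in knockdown. Its log2 fold change was -0.56 (SE 0.15, adjusted p = 0.0308 from edgeR), and with the replicate number as a block it was -0.55 (adjusted p = 0.0526). The log2 fold change of *Des* was -0.41 without scrambled 2 (adjusted p = 0.266), -0.63 without knockdown 1 (adjusted p = 0.196) and -0.50 without knockdown 2 (adjusted p = 0.119). *Plec*, which codes for the cytoskeletal linker plectin, had 206 and 416 reads in scrambled and 391 and 315 in knockdown (log2 fold change 0.41, SE 0.18, adjusted p = 0.182). Scrambled 1 was the low library for *Plec*. Its log2 fold change was 0.81 without scrambled 2 (adjusted p = 0.00478) and 0.11 without scrambled 1 (adjusted p = 0.815). These lists were drawn up with earlier results of these data known, and their counts are descriptions.

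hnRNP L binds RNA rich in CA repeats, so runs of at least 10 CA units were counted on the RNA strand of each gene body. All 9 genes held at least 1 run, against 51.3% of 8651 tested genes, but most of them are long genes, where the median body of a tested gene was 26.0 kb. Per 100 kb of gene body *Sgce* had the most, 16.0 (12 runs in 75.2 kb). *Dag1* had the fewest, 1.42 (1 run in 70.5 kb). The median of the 9 genes was 5.67 runs per 100 kb and that of tested genes 1.23, while pooled over their length the 9 genes gave 4.98 and tested genes 4.04. *Dmd* held 97 runs in 2257 kb and *Sgcd* 62 runs in 1093 kb, while *Sgcb*, the gene with the smallest unadjusted p, held 1 run in 15.0 kb. In the longest coding transcripts only *Dmd* had runs, 2 of them, against 4.54% of 8222 genes with at least 1. A run is a match of letters and not a measured binding site.

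**Figure D4:**
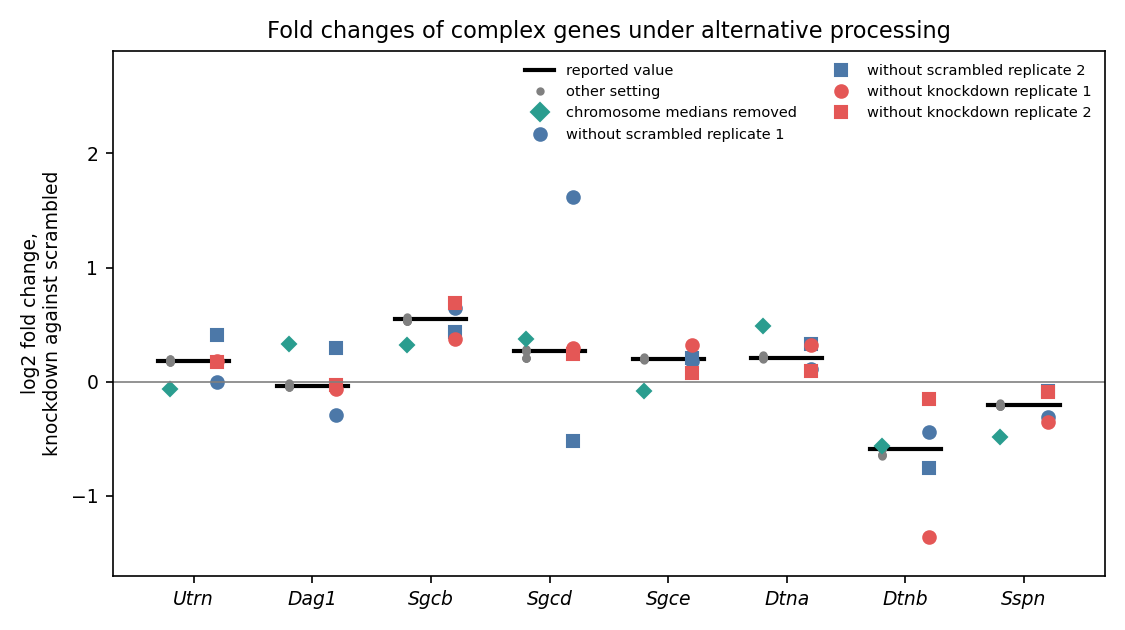
Log2 fold change of each complex gene tested, knockdown against scrambled, as reported (black bars), under other settings (grey dots), with chromosome medians removed (green diamonds) and with single libraries left out (blue without a scrambled library, red without a knockdown library; circles replicate 1, squares replicate 2). *Sgcb* stayed above 0 in all of them, *Dtnb* and *Sspn* below 0, and *Sgcd* ran from -0.52 to 1.61.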

How the data were processed

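Direct RNA reads of 4 C2C12 libraries were basecalled by the authors with guppy, mapped to GRCm39 with minimap2 2.17 and counted per gene with HTSeq 0.9.1. The deposited values are whole counts, not normalized, and reads not assigned to a gene were left out of library sizes. The annotation release and strand setting of the counting are not given in the sources used here. Symbols, positions and transcripts came from GENCODE vM39 (GRCm39), in which 56017 of the 56748 gene IDs were found.

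The groups were compared with edgeR 4.0.16 in R 4.3.3, using filterByExpr, TMM factors and the quasi-likelihood test over all genes that passed. Normalized counts are the deposited counts after TMM scaling to a library of mean size. The authors used DESeq2, which was run here as an alternative (DESeq2 1.42.0, Wald and likelihood ratio tests, local and parametric fits). Intervals of counts are 95% Poisson intervals, and zero counts were given an upper limit of 3. Both cover counting error only.

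Batch labels pair the replicate numbers, but across 7705 genes the same-numbered libraries deviated from their groups with a correlation of -0.01, and the fit without the block was kept, as the study's methods use none. The genes named are the 9 members, *Hnrnpl*, defining markers, and genes of the pathway lists with an unadjusted p under 0.05; for any other gene the choice followed sight of its values. The members and lists were chosen with earlier results of these data known. The scripts were tested on simulated data. Transcript ends were mapped with minimap2 2.31. Transcript variants were not analysed here, and some genes of the lists are not reported here.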

Additional observations from a re-analysis of the deposited data

How the results depend on the processing

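Each result was recomputed with upper quartile or RLE factors, without a filter, with a minimum of 10 counts per library, with 4 DESeq2 configurations, the robust quasi-likelihood test, the replicate block, without mitochondrially encoded genes and *Rn18s*, with chromosome medians removed, and without single libraries. Members called stayed at 0 in every setting that kept all libraries. In the reported fit they also stayed at 0 at an adjusted p under 0.10 or an absolute log2 fold change over 1. These 2 thresholds were not applied to the other settings. *Sgcd* and *Dtnb* did not pass the minimum of 10 counts per library, and *Dtnb* had no adjusted p in the DESeq2 Wald test with local fit. With chromosome medians removed *Utrn* reversed to -0.062, *Dag1* to 0.33 and *Sgce* to -0.078. Without single libraries *Dag1* lay between -0.29 and 0.30 and *Sgcd* between -0.52 and 1.61, both reversing without scrambled 2. The cause was not tested. The 481 genes called became 228 and 115 with the DESeq2 Wald test (local, parametric), 222 and 112 with the likelihood ratio test, 285 with chromosome medians removed, 187 at a log2 fold change over 1, 772 at an adjusted p under 0.10, and between 20 and 444 without single libraries. The 2 genes called in the pathway lists became 1 with local DESeq2 fits, 0 with parametric fits, 1 with the replicate block, 1 with chromosome medians removed, and between 0 and 1 without single libraries. *Hnrnpl* stayed at -0.78 with both parametric DESeq2 fits but at adjusted p of 0.0567 and 0.0670, and lay between -1.03 and -0.47 without single libraries. The replicate block changed no other call among the genes named. At 4 to 25 reads per library, the intervals held a 2-fold rise for *Sgcd* and a 2-fold fall for *Dtnb* and *Sspn*, and for *Sgcd* the spread between scrambled libraries went beyond counting error.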

Other observations

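*Peg10*, a paternally expressed gene, starts 99 bases from the start of *Sgce* and runs in the opposite direction (chr6:4747306-4760517, against chr6:4672057-4747207 for *Sgce*). It was looked at because of this position, after the data had been seen. It had 63 and 73 reads in scrambled and 144 and 69 in knockdown, or 66.0 and 61.4 against 143 and 80.6 normalized counts. *Peg10* had a log2 fold change of 0.83 (SE 0.23, adjusted p = 0.0369 from edgeR), while *Sgce* had one of 0.20 (SE 0.20, adjusted p = 0.618), and the difference between these changes was not tested. Over 16 alternatives the adjusted p of *Peg10* ran from 0.00273 to 0.534. It was 0.499 without knockdown 1, where the log2 fold change was 0.34, and 0.248 with chromosome medians removed.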
